A study of Mus musculus with 13 samples.

Results

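The vascular endothelial growth factor (VEGF) system was followed through 9 genes in CD31-sorted cells of mouse-grown SKOV3ip1 tumors. The genes were taken by symbol: 4 ligands (Vegfa, Vegfb, Vegfc and Pgf), 3 receptor tyrosine kinases (Flt1, Kdr and Flt4) and 2 neuropilin co-receptors (Nrp1 and Nrp2). They are 9 of 18193 genes with a named probe set on the arrays, and all 9 were among the 15370 genes bright enough to test. SKOV3ip1 is a human ovarian cancer line, so the arrays, which carry mouse probes, were made to read the host side of the tumor.

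The resistant group (n = 4 arrays) and the sensitive group (n = 4 arrays) came from tumors of mice given B20, a murine monoclonal antibody against VEGF-A, and were named by how the tumor responded. The tumors were taken at different times in the course of B20. The introduction of the study names pretreatment, maximal response and progression as times of collection. Response and time on treatment therefore cannot be told apart between the sensitive and resistant groups. The control group (n = 5 arrays) is labeled only as control, and in the methods of the study the comparison arm received a control IgG antibody. The methods list female athymic nude mice, which lack most T cells, with tumor cells placed in the peritoneal cavity. The labels call the arrays biological replicates but tie none of them to an animal, a dose or a day, so the p-values measure only the spread between these samples. Tumors were digested, cleared of platelets and red cells on Percoll and sorted by FACS on CD31, the product of Pecam1. CD31 marks endothelium and is also carried by some macrophages, other leukocytes and platelets.

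VEGF ligands are secreted dimers that bind receptor tyrosine kinases on endothelial cells and drive vessel sprouting, permeability and survival. Kdr (VEGFR2) carries most of the signal of VEGF-A, Flt1 (VEGFR1) binds VEGF-A, VEGF-B and placental growth factor tightly and also exists as a soluble decoy, and Flt4 (VEGFR3) binds VEGF-C and is best known from lymphatic vessels. Nrp1 and Nrp2 hold VEGF isoforms for these receptors and also bind class 3 semaphorins, and they are found on neurons, endothelium and some macrophages and dendritic cells. B20 removes the ligand VEGF-A, not the receptors.

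Promoters of 4 genes are shown because the genes moved in 2 pairs across the arrays: Kdr with Flt1, and Nrp1 with Nrp2. Each line gives the 250 bases before the RefSeq transcription start on GRCm38.p6, read 5′ to 3′ on the strand of the gene. Capitals mark GGAAG, the core bound by ETS factors, and GGGCGG, the GC box bound by Sp1-type factors, on either strand.
Kdr (chr5:75978456-75978705, minus strand): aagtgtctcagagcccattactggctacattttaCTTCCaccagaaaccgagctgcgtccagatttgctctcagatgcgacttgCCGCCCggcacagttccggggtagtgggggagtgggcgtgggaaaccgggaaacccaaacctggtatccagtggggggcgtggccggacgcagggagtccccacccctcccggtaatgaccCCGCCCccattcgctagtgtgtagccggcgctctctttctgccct
Flt1 (chr5:147726012-147726261, minus strand): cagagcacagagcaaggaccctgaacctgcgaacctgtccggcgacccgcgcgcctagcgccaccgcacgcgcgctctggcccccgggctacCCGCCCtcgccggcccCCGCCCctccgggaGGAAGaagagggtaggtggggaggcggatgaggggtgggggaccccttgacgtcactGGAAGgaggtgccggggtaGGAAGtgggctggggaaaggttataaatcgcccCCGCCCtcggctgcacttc
Nrp1 (chr8:128358823-128359072, plus strand): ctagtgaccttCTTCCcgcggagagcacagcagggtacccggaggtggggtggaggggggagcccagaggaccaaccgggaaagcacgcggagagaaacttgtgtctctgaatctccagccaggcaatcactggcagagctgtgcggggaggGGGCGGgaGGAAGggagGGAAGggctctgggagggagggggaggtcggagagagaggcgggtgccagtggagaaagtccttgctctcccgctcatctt
Nrp2 (chr1:62703067-62703316, plus strand): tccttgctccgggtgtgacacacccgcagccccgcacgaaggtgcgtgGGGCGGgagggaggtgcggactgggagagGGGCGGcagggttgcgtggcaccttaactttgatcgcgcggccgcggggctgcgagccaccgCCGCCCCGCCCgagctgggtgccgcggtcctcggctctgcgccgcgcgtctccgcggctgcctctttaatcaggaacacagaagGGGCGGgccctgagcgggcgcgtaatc
All 9 genes matched RefSeq promoters by symbol, with 11 windows because Vegfa and Pgf have 2 starts each. GGAAG was in 6 of these 11 windows, 3 times each in Flt1 and Nrp1, once in Kdr and not in Nrp2, and it was in 64.1% of 32851 mouse promoter windows of the same length. GGGCGG was in 10 of the 11 windows, against 32.7% of all windows. Nrp2 held it 5 times, and 2 of those matches share a base. ACGTG, the core of the hypoxia response element, was in 1 of the 11 windows and in 16.6% of all windows. That window, chr17:46025164-46025413 on the minus strand, belongs to the second Vegfa start and lies downstream of the first. The window of the first Vegfa start, chr17:46032378-46032627, did not hold it. These matches are letters in a window, and binding was not measured here.

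Values below are normalized log2 intensities, on a scale whose floor was 2.01. Levels are compared between arrays within a gene, never between genes, because each probe set has its own response. Cdh5, Pecam1 and the median endothelial marker were far dimmer on 11 arrays than on control arrays 4 and 5, though all arrays were labeled as endothelial cells. Cdh5, which encodes VE-cadherin, was 2.87 to 4.28 on the resistant arrays, 2.11 to 3.27 on the sensitive arrays and 2.61 to 3.03 on control arrays 1 to 3, but 7.96 and 8.06 on control arrays 4 and 5. These are values of 1433956_at, the main probe set. A second Cdh5 probe set, 1422047_at, was above the floor on 7 arrays and read 2.61 and 2.29 on control arrays 4 and 5. Pecam1 was 2.32 to 3.41 on the same 11 arrays and 6.56 on both control arrays 4 and 5. The median of 19 endothelial markers was 6.79 and 6.77 on control arrays 4 and 5 and 2.53 to 3.99 elsewhere. Single markers differed outside that pair: Tie1 lay at the floor on 4 arrays, while Icam2 reached 6.77, Eng 6.70 and Egfl7 6.66. The median of 14 macrophage markers was 3.65 to 4.54 on sensitive arrays 1 to 3 and 7.76 to 10.13 on the other 10 arrays. The median of 10 mesothelial markers, genes of the peritoneal lining, was highest at 8.31 and 7.88 on sensitive arrays 1 and 2. The median of 5 B cell markers was 8.55 on sensitive array 3 and 2.97 to 5.53 on the other 12 arrays, and that array held the lowest main probe set value of Vegfa, Pgf, Flt1, Kdr, Flt4 and Nrp2. The part of B cells in these values was not tested. In such bulk samples fewer cells of a type and less RNA per cell cannot be told apart.

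No member was called in any comparison between groups, by limma at a Benjamini-Hochberg adjusted p under 0.05 over all tested genes. Between resistant and sensitive arrays 0 of 9 members were called, beside 0% of 15370 genes. At an unadjusted p under 0.05 there was 1 member, Nrp2, beside 7.07% of all genes. Between sensitive and control arrays 0 of 9 were called, beside 0% of genes, and 2 members, Nrp1 and Nrp2, had an unadjusted p under 0.05, beside 11.9% of genes. Between resistant and control arrays 0 of 9 were called, beside 0% of genes, and 0 members against 2.51% of genes had an unadjusted p under 0.05. The methods' t-test at its unadjusted threshold counted 0, 1 (Nrp2) and 0 members in these 3 comparisons, and 0 after Benjamini-Hochberg adjustment. No member had groups that did not overlap, where 1.87%, 3.03% and 2.71% of all genes did in the same order.

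The median difference over the 9 members was 0.38 for resistant minus sensitive, -0.49 for sensitive minus control and -0.24 for resistant minus control. Over all tested genes these medians were -0.07, 0.09 and 0.03. Signs were mixed, with 6 members positive and 3 negative in the first comparison, 2 and 7 in the second and 3 and 6 in the third. The 3 comparisons share arrays and are not independent of each other.

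**Figure D1:**
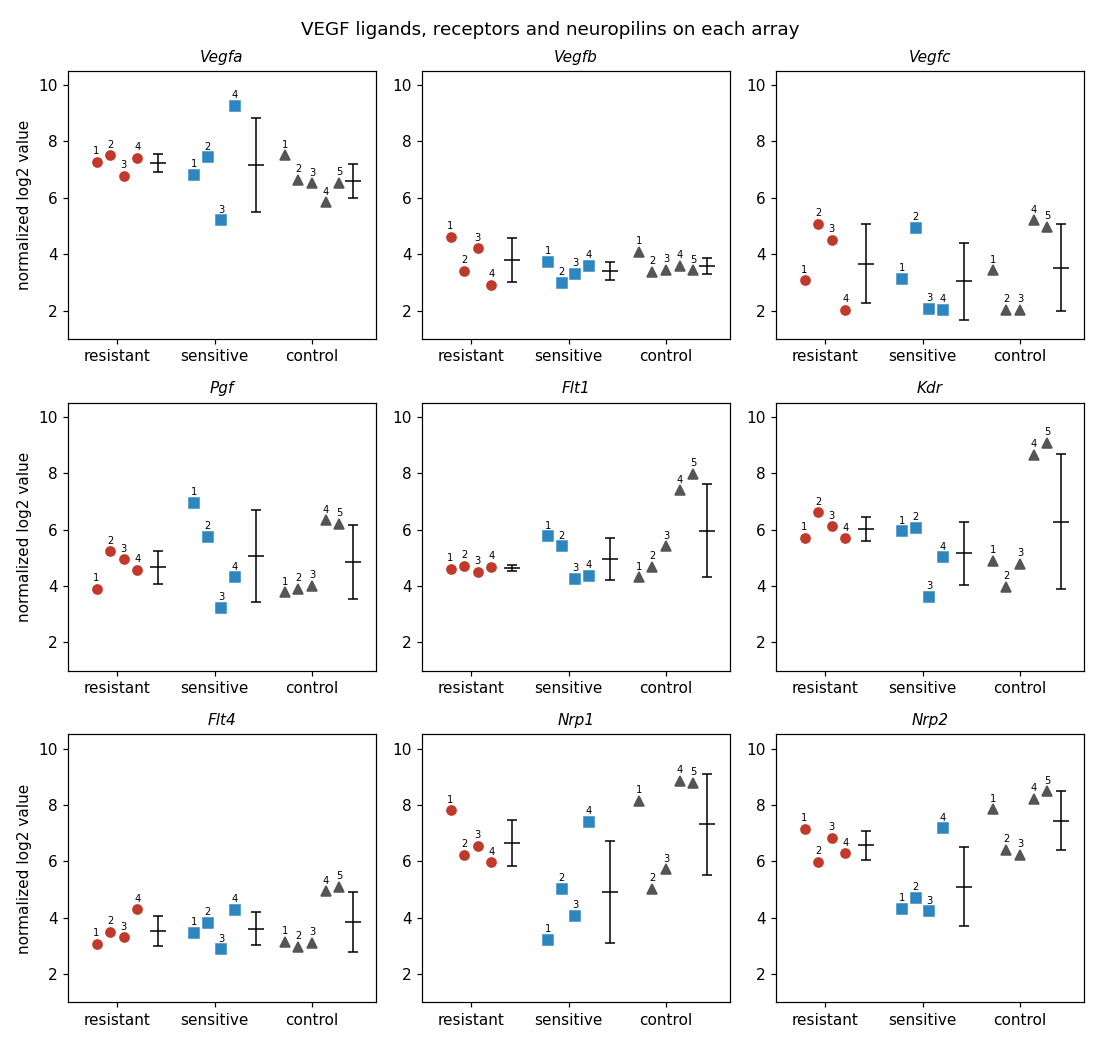
Each panel plots 1 gene, with the normalized log2 value of every array on the vertical axis and the array number above each point. Bars give mean ± SD of the resistant (n = 4), sensitive (n = 4) and control (n = 5) groups. Kdr and Flt1 are highest on control arrays 4 and 5, and the main probe set of Nrp2 is lowest on sensitive arrays 1 to 3.

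Among the ligands, Vegfa, the target of B20, was 7.27, 7.50, 6.78 and 7.42 on the resistant arrays, 6.80, 7.43, 5.20 and 9.25 on the sensitive arrays, and 7.50, 6.63, 6.52, 5.84 and 6.52 on the control arrays. On the main probe set, 1420909_at, the sensitive group held both the highest and the lowest Vegfa value, arrays 4 and 3. The resistant values lay inside the sensitive range there. Group means were 7.24 ± 0.32 in resistant, 7.17 ± 1.67 in sensitive (SD, n = 4 each) and 6.60 ± 0.59 in control arrays (SD, n = 5). The resistant minus sensitive difference was 0.07 (SE 0.64, limma adjusted p = 0.979). The resistant minus control difference was 0.64 (SE 0.61, adjusted p = 1.00), with an exact two-sided permutation p of 0.0794. Sensitive minus control was 0.57 (SE 0.61, adjusted p = 0.667), and it was -0.12 without sensitive array 4. A second Vegfa probe set, 1451959_a_at, followed the main one with r = 0.56. On it resistant array 1 was highest at 6.37, above sensitive array 4 at 6.04, and sensitive array 3 was again lowest at 3.54. Its differences were 0.39 for resistant minus sensitive, 0.01 for sensitive minus control and 0.40 for resistant minus control.

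Vegfb, a ligand of Flt1 linked to lipid handling and vessel survival, varied little. It ran from 2.91 to 4.61 on resistant, 2.99 to 3.72 on sensitive and 3.37 to 4.08 on control arrays. Its differences were 0.38 (SE 0.35) for resistant minus sensitive, -0.17 (SE 0.33) for sensitive minus control and 0.21 (SE 0.33) for resistant minus control. None of the neighbors in the order resistant, control, sensitive differed beyond their spread.

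Vegfc, the lymphatic growth factor that binds Flt4, was 3.07, 5.07 and 4.51 on resistant arrays 1 to 3, 3.12, 4.94 and 2.06 on sensitive arrays 1 to 3, and 3.42, 5.19 and 4.97 on control arrays 1, 4 and 5. On this main probe set the remaining 4 arrays were at the floor: resistant array 4, sensitive array 4 and control arrays 2 and 3. The other probe sets of Vegfc, 1419417_at and 1440739_at, read above the floor on control array 2 (2.08 and 2.20) and control array 3 (3.24 and 2.82), and 1440739_at also did on resistant array 4 (2.56). High and low arrays were therefore found in every group. The differences were 0.64 (SE 0.88), -0.49 (SE 0.83) and 0.14 (SE 0.83) for resistant minus sensitive, sensitive minus control and resistant minus control.

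Pgf, placental growth factor, which binds Flt1 but not Kdr, was 3.89, 5.23, 4.94 and 4.56 on resistant arrays, 6.96, 5.75, 3.22 and 4.31 on sensitive arrays, and 3.78, 3.90, 4.01, 6.33 and 6.21 on control arrays. Its 4 highest values were thus sensitive arrays 1 and 2, where mesothelial markers were highest, and control arrays 4 and 5, where endothelial markers were highest. The group means of 4.66 ± 0.58 in resistant, 5.06 ± 1.64 in sensitive (SD, n = 4 each) and 4.85 ± 1.30 in control arrays (SD, n = 5) were closer together than the arrays within a group. Resistant minus sensitive was -0.40 (SE 0.79), and without sensitive array 1 it was 0.23.

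Among the receptors, Kdr was 5.72, 6.61, 6.11 and 5.69 on resistant arrays, 5.93, 6.05, 3.63 and 5.01 on sensitive arrays, and 4.89, 3.97, 4.79, 8.65 and 9.08 on control arrays. The resistant values were close together, while the control group split into a dim set of 3 arrays and a bright pair. Group means were 6.03 ± 0.43 in resistant, 5.16 ± 1.12 in sensitive (SD, n = 4 each) and 6.28 ± 2.39 in control arrays (SD, n = 5). The differences were 0.87 (SE 1.01, adjusted p = 0.834) for resistant minus sensitive and -1.12 (SE 0.96, adjusted p = 0.592) for sensitive minus control.

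The direction of Kdr between resistant and control arrays depended on control arrays 4 and 5. With all arrays resistant minus control was -0.24 (SE 0.96, adjusted p = 1.00), and without these 2 arrays it was 1.48 (adjusted p = 1.00). All 4 resistant arrays then lay above the other 3 control arrays, a separation that 5.89% of all genes also showed. Sensitive minus control turned likewise, to 0.60 without the pair.

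Flt1 was 4.60, 4.72, 4.50 and 4.69 on resistant arrays, 5.76, 5.41, 4.26 and 4.36 on sensitive arrays, and 4.31, 4.69, 5.40, 7.39 and 7.98 on control arrays. The resistant group was the tightest, at 4.63 ± 0.10, against 4.95 ± 0.75 in sensitive (SD, n = 4 each) and 5.96 ± 1.64 in control arrays (SD, n = 5). The differences were -0.32 (SE 0.71) for resistant minus sensitive, -1.01 (SE 0.67) for sensitive minus control and -1.33 (SE 0.67, adjusted p = 1.00) for resistant minus control. Without control arrays 4 and 5 the last was -0.17.

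The 4 probe sets of Flt1 disagreed. Resistant minus sensitive was -0.32 for the main probe set, 1451756_at, and 0.99, 0.64 and 0.25 for 1419300_at, 1440926_at and 1454037_a_at. For 1419300_at the resistant arrays read 4.79, 3.77, 4.60 and 3.35, against 3.08, 2.93, 2.72 and 3.82 on the sensitive arrays. Sensitive minus control was -1.01 for the main probe set and -2.58 for 1419300_at. All 4 probe sets were brightest on control arrays 4 and 5. Which of the full-length and soluble forms each probe set reads is not given in the sources used here.

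Flt4 was dim, at 3.07 to 4.30 on resistant arrays, 2.88 to 4.28 on sensitive arrays and 2.97 to 5.10 on control arrays, where arrays 4 and 5 were again highest. Its differences were -0.07 (SE 0.52), -0.24 (SE 0.49) and -0.31 (SE 0.49) for resistant minus sensitive, sensitive minus control and resistant minus control. Prox1, the transcription factor that defines lymphatic endothelium, was at the floor on 12 of 13 arrays. Other lymphatic markers were not, and Mmrn1 reached 6.41. The median of 5 lymphatic endothelial markers was 5.87 and 6.02 on control arrays 4 and 5 and 2.80 to 4.69 elsewhere. A second probe set of Flt4 followed the first weakly, with r = 0.41 over the 13 arrays.

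The widest separations were those of the neuropilins. Nrp2 was 7.16, 5.99, 6.83 and 6.28 on resistant arrays, 4.33, 4.71, 4.23 and 7.17 on sensitive arrays, and 7.85, 6.41, 6.22, 8.22 and 8.48 on control arrays. On this main probe set, 1426528_at, sensitive arrays 1 to 3 lay below every other array, and sensitive array 4 lay among the resistant and control values. Group means were 6.56 ± 0.53 in resistant, 5.11 ± 1.39 in sensitive (SD, n = 4 each) and 7.43 ± 1.05 in control arrays (SD, n = 5). Sensitive minus control was -2.33 (SE 0.63), 5.01-fold lower, with a limma adjusted p of 0.244 and an exact two-sided permutation p of 0.0397. Resistant minus sensitive was 1.46 (SE 0.66), 2.74-fold higher, with adjusted p = 0.703 and an exact permutation p of 0.143. Resistant minus control was -0.87 (SE 0.63, adjusted p = 1.00). The other probe sets of Nrp2 separated the arrays less. Resistant minus sensitive was 0.63, 0.60 and 0.06 for 1435349_at, 1456778_at and 1447343_at, and sensitive minus control was -1.55, -0.95 and -0.73. On 1435349_at sensitive arrays 1 and 2, at 6.20 and 5.65, lay above resistant array 2 at 5.02, and on 1456778_at sensitive array 2 lay within the resistant range. Sensitive array 3 was the lowest array on 1435349_at and on 1456778_at, at 3.10 and 3.57. The smallest p the exact test allows is 0.0286 for 4 against 4 arrays and 0.00794 for 4 against 5.

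Nrp1 followed the same arrays. It was 7.81, 6.22, 6.55 and 5.97 on resistant arrays, 3.22, 5.03, 4.06 and 7.39 on sensitive arrays, and 8.15, 5.04, 5.72, 8.86 and 8.78 on control arrays. Sensitive arrays 1 to 3 were again the lowest, though control array 2 lay just above sensitive array 2. Sensitive minus control was -2.38 (SE 0.92), 5.22-fold lower, with adjusted p = 0.343 and an exact permutation p of 0.0794. Resistant minus sensitive was 1.71 (SE 0.96, adjusted p = 0.758), and resistant minus control was -0.67 (SE 0.92). With the mean of 4 probe sets a gene in place of the brightest, sensitive minus control was -1.57 for Nrp1 and -1.39 for Nrp2, and resistant minus sensitive was 1.27 for Nrp1 and 0.69 for Nrp2.

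Whether the neuropilins passed the test turned on sensitive array 4. Without it sensitive minus control was -3.01 for Nrp2 (limma adjusted p = 0.00506) and -3.21 for Nrp1 (adjusted p = 0.0498), so 2 of 9 members were called, beside 4.53% of all genes. That array had a difference between the 3′ and 5′ control probe sets of Actb and Gapdh of 5.95, against 2.23 to 3.82 on the other arrays. With this difference as a covariate, an alternative chosen after seeing the data, 1 of 9 members was called, Nrp2 at -3.05 (adjusted p = 0.0119), beside 2.76% of all genes. Nrp1 stood at -3.34 (adjusted p = 0.0523).

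Sensitive arrays 1 to 3, the lowest on the main probe sets of both neuropilins, were the same 3 arrays on which macrophage markers were low. Without them, with only sensitive array 4 left in the group and assumed to vary like the other groups, sensitive minus control was -0.27 for Nrp2 and 0.08 for Nrp1, which restates where that array lay. Resistant minus sensitive was then -0.61 for Nrp2 and -0.76 for Nrp1. Between sensitive and control arrays 14 of 14 macrophage markers had a lower mean in the sensitive group, with a median difference of -2.97. The summed linear level of these markers was 1148 to 19902 on the sensitive arrays and 9866 to 18658 on the control arrays. Csf1r, the macrophage growth factor receptor, was never under 7.39 on any array, while Marco, Cd163 and Itgam reached or neared the floor on some. The part of these cells in the neuropilin differences was not tested.

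**Figure D2:**
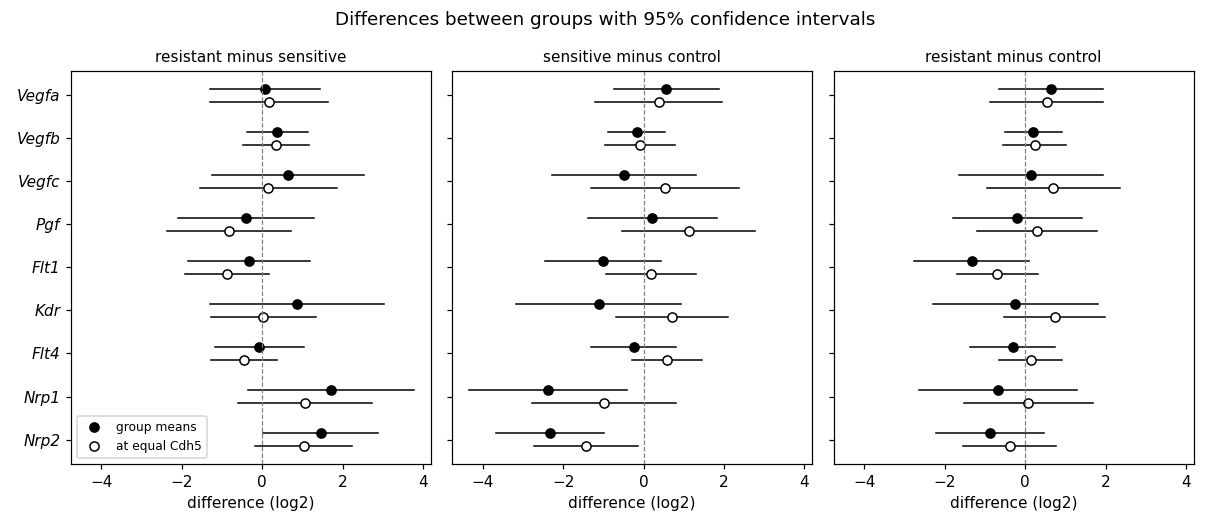
The log2 difference of each gene is plotted with its 95% confidence interval for the 3 comparisons. Filled points compare group means and open points compare the groups at equal Cdh5. The slopes used for the open points of Vegfc, Pgf, Flt1, Kdr and Flt4 turned negative without control arrays 4 and 5, and those of the other members rose. That of Nrp2 rose from 0.37 to 1.40 and that of Nrp1 from 0.58 to 1.80. The interval of Nrp2 for sensitive minus control excludes 0 in both fits, though neither adjusted p passed the threshold.

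To set the members against the endothelial signal of each array, the slope on Cdh5 within groups was fitted across all genes, in log2 units of the gene per log2 unit of Cdh5. Kdr had a slope of 0.76 (SE 0.14, limma adjusted p = 0.0226), and 1 of 9 members was called higher with Cdh5, beside 0.579% of 15369 genes. Flt1 had a slope of 0.49 (SE 0.11, adjusted p = 0.102), Flt4 0.34 (SE 0.09, adjusted p = 0.180) and Nrp1 0.58 (SE 0.18, adjusted p = 0.416). Vegfa and Vegfb had slopes of -0.08 (SE 0.16) and 0.03 (SE 0.09). Of 18 tested endothelial markers other than Cdh5, 12 were called higher.

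The slopes of Kdr, Flt1 and Flt4 turned negative when both control arrays 4 and 5 were left out. Without control arrays 4 and 5 Kdr had a slope of -0.25 (SE 0.48), Flt1 of -0.39 (SE 0.37) and Flt4 of -0.06 (SE 0.33), with 0 members called. The call for Kdr was also lost when any 1 of the 5 control arrays was left out, with adjusted p between 0.0546 and 0.408, though its slope then stayed between 0.68 and 0.76. Nrp1 and Nrp2 kept a positive slope without the pair, 1.80 (SE 0.62, adjusted p = 0.441) and 1.40 (SE 0.42, adjusted p = 0.435). Vegfb then had a slope of 0.76 (SE 0.28, adjusted p = 0.446) and Vegfa of 0.64 (SE 0.59). Among the remaining 11 arrays Cdh5 spanned only 2.11 to 4.28.

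**Figure D3:**
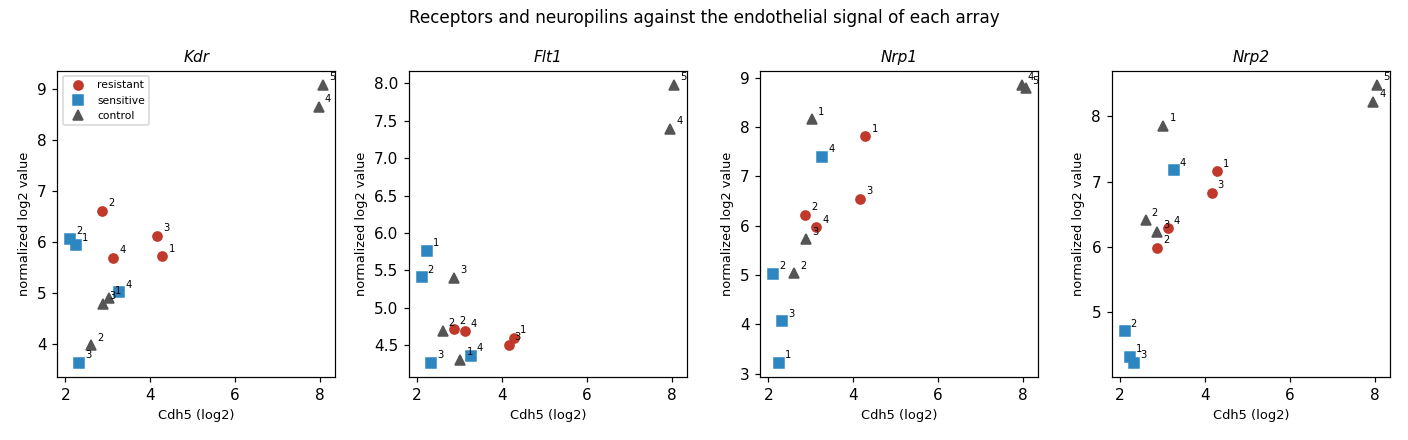
The normalized log2 values of Kdr, Flt1, Nrp1 and Nrp2 are plotted against that of Cdh5, 1 point per array, numbered within the group. Control arrays 4 and 5 lie alone at Cdh5 values of 7.96 and 8.06, and the other 11 arrays lie under 4.3.

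At equal Cdh5 no member was called between groups by limma. For resistant minus sensitive 0 of 9 were called beside 0% of genes, with 926 genes at an unadjusted p under 0.05. For sensitive minus control 0 of 9 were called beside 0% of genes, with 951 genes at that p, Nrp2 among them at -1.42 (SE 0.60, adjusted p = 0.772). For resistant minus control 0 of 9 were called beside 0% of genes, with 324 genes at that p. Kdr stood at 0.03 (SE 0.60) for resistant minus sensitive and 0.74 (SE 0.58) for resistant minus control. This fit used the Kdr slope of 0.76, which was -0.25 (SE 0.48) without control arrays 4 and 5. The change in resistant minus sensitive from 0.87 to 0.03 therefore rests on that control pair, which is in neither group. Whether the endothelial signal accounts for the Kdr difference was not tested. Without sensitive array 4 the equal-Cdh5 fit called 1 of 9 members, Nrp2 at -2.16 for sensitive minus control (adjusted p = 0.0288), beside 1.75% of genes. The Nrp2 slope was 0.32 in that fit and 0.37 (SE 0.13) over all arrays, but 1.40 (SE 0.42) without control arrays 4 and 5. The values of Nrp2 at equal Cdh5 therefore also rest on that control pair.

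Within groups the members fell into sets that moved together across arrays. Correlations here are of deviations from group means over 13 arrays, share the arrays and their scaling, and are given as a description. Kdr and Flt1 had r = 0.94, Kdr and Pgf 0.86, Kdr and Flt4 0.84 and Flt1 and Pgf 0.85. Nrp1 and Nrp2 had r = 0.94, while Nrp2 and Flt1 had only 0.25. Without control arrays 4 and 5 the neuropilin pair kept r = 0.93 and Kdr with Pgf 0.85, whereas Kdr with Flt1 had 0.67, Kdr with Flt4 0.34 and Flt1 with Nrp2 -0.54. Vegfa, which had r = 0.54 with Nrp2 over all arrays, had 0.79 without the pair.

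**Figure D4:**
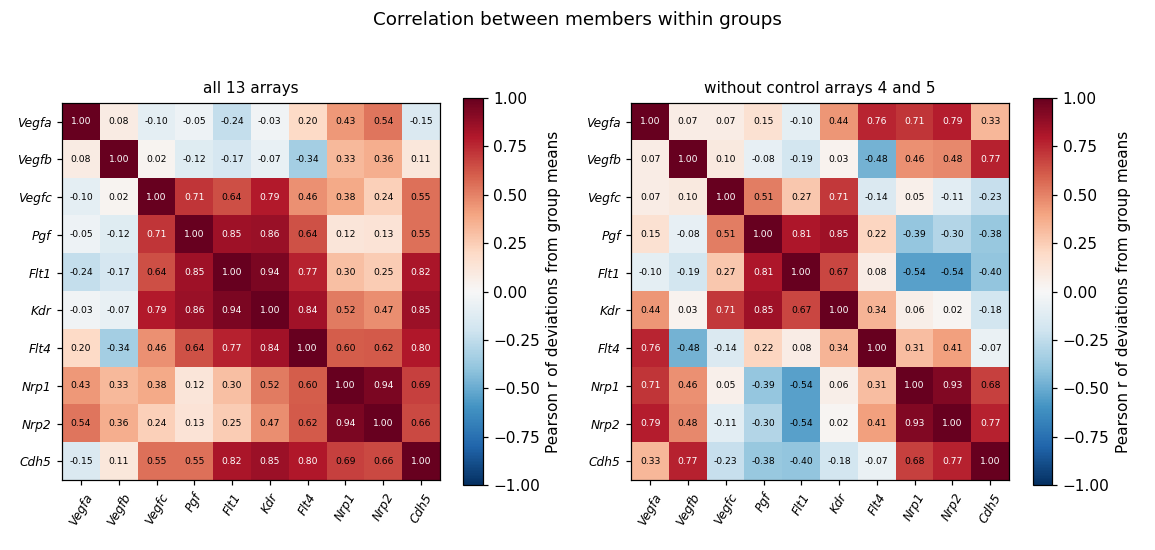
Pearson r between the members and Cdh5 is given by color and number, for deviations from group means over 13 arrays (left) and without control arrays 4 and 5 (right). The block of Kdr, Flt1, Flt4 and Pgf seen over all arrays loosened without the pair, and Nrp1 with Nrp2 stayed at 0.93.

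Several members also followed marker medians of other cell types across arrays. Within groups Nrp2 had r = 0.86 with the macrophage median over 13 arrays and 0.95 without control arrays 4 and 5. Nrp1 had 0.74 and 0.83, and Vegfa 0.66 and 0.73. Pgf, Kdr and Flt1 had r of 0.53, 0.12 and 0.15 with the mesothelial marker median over 13 arrays and of 0.92, 0.76 and 0.80 without the pair. The Flt1 values are those of its main probe set, and r was not taken for its other probe sets, which disagreed. On 1419300_at sensitive arrays 1 to 4 read 3.08, 2.93, 2.72 and 3.82, while the mesothelial median was 8.31, 7.88, 2.87 and 2.58. On resistant arrays 1 to 4 the mesothelial median was 3.27, 6.97, 6.34 and 5.64, in the same order of size as Pgf at 3.89, 5.23, 4.94 and 4.56. The median of 10 fibroblast and pericyte markers had this order too, at 5.01, 8.67, 6.51 and 6.29, and it was also high on sensitive arrays 1 and 2, at 7.92 and 8.54. Which cells carried these transcripts was not tested.

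**Figure D5:**
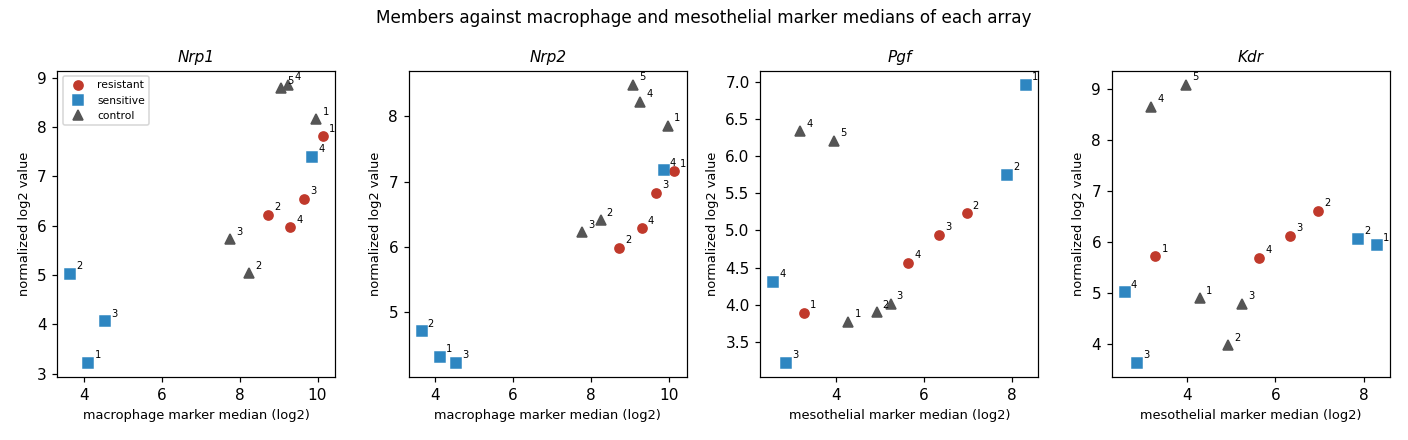
Normalized log2 values are plotted for Nrp1 and Nrp2 against the median of 14 macrophage markers, and for Pgf and Kdr against the median of 10 mesothelial markers, 1 point per array. Sensitive arrays 1 to 3 form the low end for both neuropilins, and control arrays 4 and 5 stand above the other arrays of like mesothelial median for Pgf and Kdr.

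The genes most like each member over the 13 arrays were listed by Pearson r. For Kdr they were Esam, an endothelial adhesion molecule (r = 0.97), Col4a2 and Plxna2 (both 0.95). For Flt1 they were Tmem204, Tbx3 (both 0.96) and Angpt2 (0.95), the Tie2 ligand made by endothelial cells, and without control arrays 4 and 5 these stood at 0.69, 0.72 and 0.63. For Flt4 they were Mmrn1, a gene of lymphatic endothelium (0.90), Sox18 and Slc1a1 (both 0.86). For Nrp1 the first was Nrp2 (0.95), followed by Rapgef2 and Lpar1 (both 0.93). For Nrp2 they were Marcksl1, Nrp1 (both 0.95) and Ly96, the partner of the lipopolysaccharide receptor (0.94). For Pgf they were Tinagl1, Card10 (both 0.95) and Ephb1 (0.93), and for Vegfc Nectin3 (0.92), Pcsk6 and Tshz2 (both 0.91). Vegfa was closest to Scarb2 (0.86), Pacs2 (0.82) and 8030453O22Rik (0.81), and Vegfb to Bambi-ps1 (0.91), Junb (0.89) and Ubxn8 (0.88).

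Genes around the pathway gave no call between groups either, in limma at an adjusted p under 0.05. Of 12 tested semaphorins, plexins and Vegfd, the other partners of the neuropilins, 0 were called in each comparison, with a median for sensitive minus control of 0.16, and 0 had an unadjusted p under 0.05 there, beside 11.9% of all genes. Plxnd1, the semaphorin 3E receptor of endothelium, averaged 4.15 on sensitive arrays and 5.45 on control arrays (difference -1.30, SE 0.62, adjusted p = 0.428). Sema3f, a ligand of Nrp2, averaged 8.62 and 7.59 (difference 1.03, SE 0.54, adjusted p = 0.454). On Cdh5, Plxnd1 alone of the 12 had a called slope, 0.49 (SE 0.09, adjusted p = 0.0251), beside 0.579% of all genes. Without control arrays 4 and 5 no gene had a called slope.

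Of 27 tested genes of signaling below the receptors, 0 were called in each comparison, and for sensitive minus control 2 were higher and 4 lower at an unadjusted p under 0.05, beside 11.9% of all genes in either direction. The adaptor Gab1 averaged 4.81 on sensitive arrays and 7.15 on control arrays (difference -2.34, SE 0.82, adjusted p = 0.314). The p38 target kinase Mapkapk2 averaged 6.97 on sensitive arrays and 8.10 on control arrays (difference -1.13, SE 0.41, adjusted p = 0.330).

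Of 19 tested genes that endothelial cells induce after VEGF, 0 were called between groups. For sensitive minus control 2 of 19 had an unadjusted p under 0.05, a share near the 11.9% of all genes. Both were higher: the phosphatase gene Dusp5 at 1.22 (SE 0.28, adjusted p = 0.189) and the early response gene Nr4a1 at 1.67 (SE 0.55, adjusted p = 0.292). For resistant minus control Dusp5 was 1.19 (SE 0.28). Both genes are induced by many stimuli besides VEGF. On Cdh5, 5 of these 19 genes had a slope called higher, among them the tip cell gene Esm1 at 1.11 (SE 0.15, adjusted p = 0.00181), Plvap at 0.97 (SE 0.10, adjusted p = 0.000153) and Robo4 at 0.90 (SE 0.08, adjusted p = 6.62e-05). The other 2 were Angpt2 and Mest. Plvap and Robo4 are also in the list of endothelial markers, so their slopes were already counted above. The same call covered 0.579% of all genes, and without control arrays 4 and 5, or with the replicate number as a block, it covered 0 of 15369.

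Hypoxia is the best known inducer of Vegfa, and 14 hypoxia genes were followed beside it. For resistant minus sensitive 14 of 14 were positive, with a median of 1.03, and 0 were called while 7 had an unadjusted p under 0.05, beside 7.07% of all genes. In the same comparison 14 of 14 macrophage markers were positive, with a median of 3.11 and 12 at an unadjusted p under 0.05, and the part of these cells was not tested. The oxidoreductase gene Ero1a averaged 9.77 on resistant arrays and 7.50 on sensitive arrays (difference 2.27, SE 0.35, adjusted p = 0.0654), and the collagen hydroxylase gene P4ha1 averaged 7.96 and 6.28. For sensitive minus control 11 of 14 were negative, with a median of -0.58 and 5 at an unadjusted p under 0.05, beside 11.9% of all genes. On its main probe set Vegfa was 0.07 for resistant minus sensitive and 0.57 for sensitive minus control. The latter had the opposite sign to the hypoxia median, though not without sensitive array 4, where it was -0.12. The other Vegfa probe set read 0.39 and 0.01 in these comparisons.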

How the data were processed

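RNA of CD31-sorted cells was hybridized to 13 Affymetrix mouse expression arrays, 1 sample and 1 dye each. The deposited values of 45101 probe sets, with none missing, were taken as log2 intensities from their range of 0.46 to 13.00. The sources disagree on how the authors made them: the labels name Affymetrix labeling and MAS5 without a version, while the methods describe Illumina bead chips and BRB-ArrayTools. No source used here gives the log base or the normalization, and fold changes rest on base 2.

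The arrays were quantile normalized because their 2%-trimmed linear means ran from 19.4 to 33.5. Values under the 30th percentile, 2.01, were set to it. Probe sets with 1 symbol (34958; 932 had several and 9211 were not listed) gave 18193 genes, with 64 control probe sets removed. Each gene was represented by its brightest probe set over all arrays, and 15370 genes above the floor on at least 4 arrays were tested. Differences between groups came from limma 3.58.1 run under R 4.3.3 (lmFit and eBayes with intensity trend, 10 residual degrees of freedom, Benjamini-Hochberg over genes, two-sided). Further fits added Cdh5 as a covariate. The script was tested on simulated data. Single values were compared by exact permutation. The number of arrays limits the precision.

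The members and gene lists were chosen with earlier results of these data known. Named genes are the 9 members, the 3 genes with the highest r to each, and the 2 with the smallest p of each list in the comparison described. The probe sets of Vegfa, Nrp2, Vegfc, Flt1 and Cdh5 shown beside the main ones were chosen after their values were seen. So were Csf1r, Marco, Cd163, Itgam, Tie1, Icam2, Eng, Egfl7, Prox1, Mmrn1 and the genes named for slopes on Cdh5. Alternatives covered scaling, floor, filter, probe set rule, variance model, test, replicate block and arrays left out. Promoters came from RefSeq (GRCm38.p6).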

Additional observations from a re-analysis of the deposited data

Results flagged for a closer look

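The Nrp2 value of 7.17 on sensitive array 4 stood apart from the other 3 sensitive arrays. The nearest of them was 4.71, and this gap took up 0.835 of the range of the group. Chance alone sets apart about 1 in 20 groups by this measure, and 33 groups were looked at for the 9 members, Cdh5 and Pecam1.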

How the results depend on the processing

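Counts of called members between groups were 0 under all scaling, floor, filter, probe set and variance model alternatives and with the replicate block. For sensitive minus control they were 0 to 2 when 1 array was left out and 1 with the 3′ to 5′ covariate. The pooled-variance t-test at an unadjusted p under 0.05 counted 1 member there, beside 1370 of 15370 genes. At equal Cdh5 the counts for sensitive minus control were 0 to 1 when 1 array was left out. Members called for a slope on Cdh5 numbered 1, and 2 (Kdr and Flt1) with values as deposited, with 1 trimmed mean, with the mean of all probe sets and without sensitive arrays 1 to 3, 0 without control arrays 4 and 5, and 0 to 2 when 1 array was left out. The mean of all probe sets also took in the dim second probe set of Cdh5.

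Several small differences changed sign, none of them called. With 1 array left out, resistant minus sensitive ran from -0.58 to 0.76 for Vegfa, -1.02 to 0.23 for Pgf and -0.32 to 0.15 for Flt4. Sensitive minus control ran from -0.12 to 1.22 for Vegfa, -0.42 to 0.83 for Pgf and -0.47 to 0.0689 for Flt4. Resistant minus control ran from -0.0711 to 0.50 for Vegfb, -0.32 to 0.70 for Vegfc, -0.46 to 0.18 for Pgf, -0.82 to 0.46 for Kdr and -0.56 to 0.00073 for Flt4. The slope of Vegfa on Cdh5 ran from -0.15 to 0.0063.

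Without control arrays 4 and 5, sensitive minus control was 0.55 for Vegfc, 0.15 for Flt1, 0.60 for Kdr and 0.53 for Flt4, and resistant minus control was 0.76 for Pgf, 1.48 for Kdr, 0.47 for Flt4 and 0.33 for Nrp1. The slopes on Cdh5 were then 0.64 for Vegfa, -0.53 for Vegfc, -0.72 for Pgf, -0.39 for Flt1, -0.25 for Kdr and -0.0577 for Flt4. Without sensitive arrays 1 to 3, resistant minus sensitive was -2.01 for Vegfa, 0.35 for Pgf, 0.27 for Flt1, -0.76 for Nrp1 and -0.61 for Nrp2, and sensitive minus control was 0.0155 for Vegfb, -0.54 for Pgf, 0.43 for Flt4 and 0.0849 for Nrp1.

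Setting the arrays to 1 trimmed mean moved the median of all genes by 0.23 for sensitive minus control and by -0.19 for resistant minus sensitive; against that shift, sensitive minus control was 0.12 for Vegfb and 0.019 for Flt4, and the slope of Vegfb was -0.0046. With values as deposited, Pgf was -0.21 for sensitive minus control. With the mean of all probe sets, Flt1 was 0.39 for resistant minus sensitive and Vegfc -0.21 for resistant minus control. With the 3′ to 5′ covariate, Flt4 was 0.0645 for resistant minus sensitive and Vegfa -0.0851 for sensitive minus control. The causes were not tested.

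The labels do not say whether equal replicate numbers pair the arrays, and the arrays were not treated as paired. Deviations of same-numbered arrays correlated at -0.43 to 0.53, which cannot settle this with so few arrays. In the fit with the replicate block, 0 members were called for a slope on Cdh5, where Kdr was 0.78 (adjusted p = 1.00), sensitive minus control was 0.0689 for Flt4, and resistant minus control was 0.15 for Pgf, 0.46 for Kdr and 0.00073 for Flt4.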
